A study of Bos taurus with 6 samples.

Results

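The miR-10, miR-99/100, miR-125 and miR-196 miRNAs are short regulatory RNAs that lie beside HOX genes or beside let-7 genes in vertebrate genomes. The members described here were taken by name from the miRNA part of the authors' deposited table, whatever their values: bta-miR-10a, bta-miR-10b, bta-miR-99a-5p, bta-miR-99b, bta-miR-100, bta-miR-125a, bta-miR-125b, bta-miR-196a and bta-miR-196b. These are 9 of the 765 miRNAs in the table, and all 9 were found. The cells were primary myoblasts, muscle precursors grown from fetal longissimus dorsi muscle of beef cattle. In 3 cultures they received 20 μM resveratrol (RSV), a plant polyphenol, dissolved in DMSO, and 3 control cultures received DMSO alone. The description of the series gives 4 days in differentiation medium for both groups, and neither the labels nor the paper's methods name a genotype or the number of fetuses. The deposited table gives 1 value per group, the authors' mean over 3 libraries of reads divided by a size factor (normalized reads), so most values below have no replicate error.

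A miRNA guides a repressor complex to messenger RNAs that match its seed, the bases near its 5′ end, and miRNAs with the same seed share many targets. The miR-10 genes sit near the HOX4 genes and the miR-196 genes near the HOX9 genes, inside the clusters of transcription factors that set position along the body axis. Both families are known to repress HOX messenger RNAs, and the cleavage of HOXB8 messenger RNA by miR-196 is the best known case. The miR-99, miR-100 and miR-125 genes form clusters with let-7 genes. The miR-99/100 family is known to repress the growth kinase MTOR, and miR-125b is known to repress LIN28, a blocker of let-7 maturation, and IGF2, a growth factor that promotes myoblast differentiation.

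The gene order in the RefSeq annotation of ARS-UCD2.0, a later assembly than the one the reads were mapped to, places every member next to such genes. Precursors of 4 members had HOX genes within 4 genes on either side, and precursors of 5 members had a let-7 gene there. MIR10A was followed by HOXB4, and MIR10B stood between HOXD4 and HOXD8. MIR196B stood before HOXA9. The mature miR-196a has precursor genes between HOXB9 and HOXB8 and between HOXC9 and HOXC10, so its reads cannot be assigned to a single cluster. MIR99A, MIRLET7C and MIR125B-2 formed a cluster, as did MIR100, MIRLET7A-2 and MIR125B-1, and MIR99B, MIRLET7E and MIR125A. The mature miR-125b thus sums the output of genes in different clusters. No other miRNA in the table had means within 1% of those of a member in both groups, which is how rows that count nearly all the same reads would appear. Rows that share only part of their reads would not be found this way. Of the let-7 neighbours, let-7e had such a near row, bta-miR-7, at 9536 and 11527 against 9556 and 11632 in RSV and DMSO. miR-7 carries the name of a different family, and near means alone do not show shared reads, which were not tested. By comparison, let-7b and bta-miR-3596 had the same means, 12896 in RSV and 14991 in DMSO.

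The summed group means of all miRNAs were 6637955 normalized reads in RSV and 7340618 in DMSO. The size factors, which scale for depth and were recovered from the table, were 1.54, 1.29 and 0.935 for RSV against 0.922, 0.823 and 0.729 for DMSO, so the size factors of the groups did not overlap, and the part of this in the ratios below was not tested. The muscle miRNAs miR-206, with means of 127629 in RSV and 139464 in DMSO, and miR-1, with 28912 and 30883, were abundant, and all 6 muscle miRNAs of the marker list were detected in both groups. Of the others, miR-499 had means of 115 in RSV and 46.1 in DMSO, miR-133a 7817 and 7453, miR-133b 5687 and 5550, and miR-208b 30.5 and 32.5. Markers of blood cells, endothelium, epithelium and liver were rare: their means summed to 824, 305, 70.7 and 88.4 normalized reads in RSV and to 699, 275, 64.5 and 43.6 in DMSO. Of the 6 blood markers in the table, miR-451 (204 in RSV and 73.8 in DMSO), miR-142-5p (24.4 and 13.4) and miR-142-3p (12.2 and 3.0) had the higher mean in RSV. The others had the lower mean in RSV: miR-486 (558 and 572), miR-150 (25.8 and 31.6) and miR-223 (0 and 4.78). Most of the summed blood markers was miR-486 in both groups. In the limma voom fit described below, log2 fold changes were 0.94 for miR-451, −0.82 for miR-142-5p and −2.41 for miR-150. Their adjusted p-values in limma voom were 0.47, 0.67 and 0.11. Of the muscle miRNAs in that fit, miR-499 had a log2 fold change of 1.27 (adjusted p = 0.025 in limma voom). For miR-208b it was −0.089 (adjusted p = 0.80 in limma voom). The part of these markers in the members' ratios was not tested. The mesenchymal markers miR-143 and miR-145 summed to 380087 and 390970. The neuronal list summed to 1109 and 1101, nearly all of it miR-9-5p.

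Levels of the members covered more than 2 orders of magnitude and had the same order in both groups, except that miR-125b lay above miR-10b in RSV and below it in DMSO. The highest was miR-100, with means of 54551 normalized reads in RSV and 65468 in DMSO, rank 17 among 765 miRNAs. By the average of both means, the order below it was miR-10b (rank 20), miR-125b (21), miR-99a-5p (22), miR-99b (36), miR-125a (59) and miR-10a (86). The miR-196 miRNAs were far lower, at rank 163 for miR-196b and 245 for miR-196a. Since mature miRNAs have nearly the same length, these levels can be set side by side, apart from differences in ligation efficiency that read counts carry. Together the 9 miRNAs made up 2.77% of all normalized miRNA reads in RSV and 2.84% in DMSO.

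**Figure D1:**
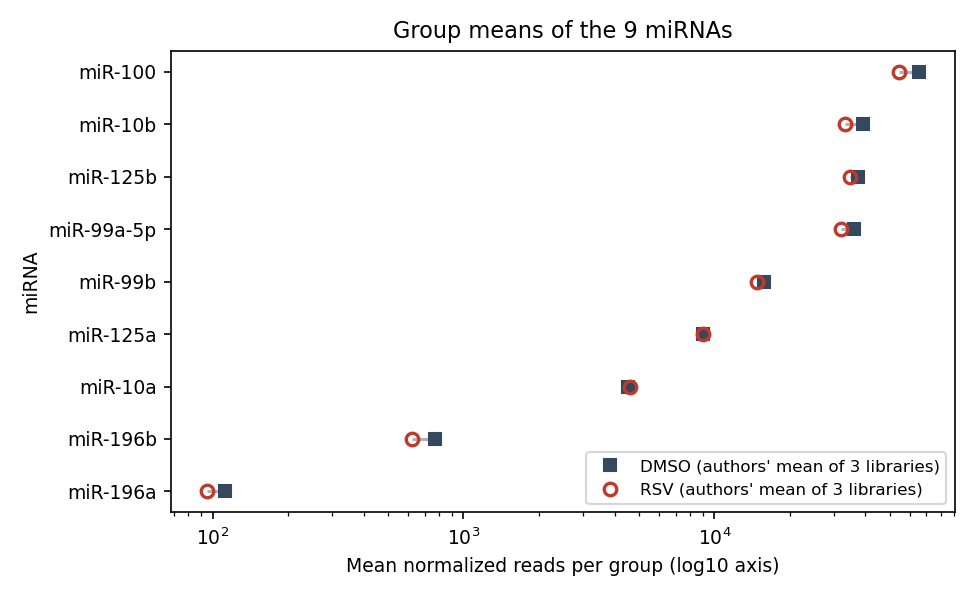
Authors' mean normalized reads of each of the 9 miRNAs (log10 axis) in the RSV group (open circles) and the DMSO group (squares), each a mean of 3 libraries without an error. The members run from about 100 normalized reads for miR-196a to 65468 for miR-100 in DMSO, and the groups lie close together for each of them.

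The groups were compared by the log2 ratio of the RSV over the DMSO mean, with 1 normalized read added to each. It reached −0.32 or 0.32 in none of the 9 members. Among the 391 miRNAs with an average of both means of at least 10 normalized reads, 8.95% were at −0.32 or lower and 13.6% at 0.32 or higher. At 1.1-fold or more, 5 of the 9 members (miR-100, miR-10b, miR-99a-5p, miR-196a and miR-196b) had the lower mean in RSV, against 29.7% of the 391 miRNAs. No member was higher in RSV by 1.1-fold or more. Over the 391 miRNAs the upper quartile of the log2 ratio was 0.19, which is past 1.1-fold. The log2 ratio was below 0 for 8 of the 9 members, with a median of −0.18 and a range from −0.31 to 0.031. Over the same 391 miRNAs it was below 0 for 48.3%, with a median of 0.0049. The members are mostly abundant, and abundant miRNAs as a whole had ratios on the same side. Of the 87 miRNAs with an average of at least 4000, 7 of them members, 65.5% were below 0, and the median was −0.098. Without these members, the median of the other 80 was −0.090, and their quartiles were −0.22 and 0.047. Among the 102 miRNAs from 100 to under 1000, which hold both miR-196 members, 41.2% were below 0 and the median was 0.040.

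**Figure D2:**
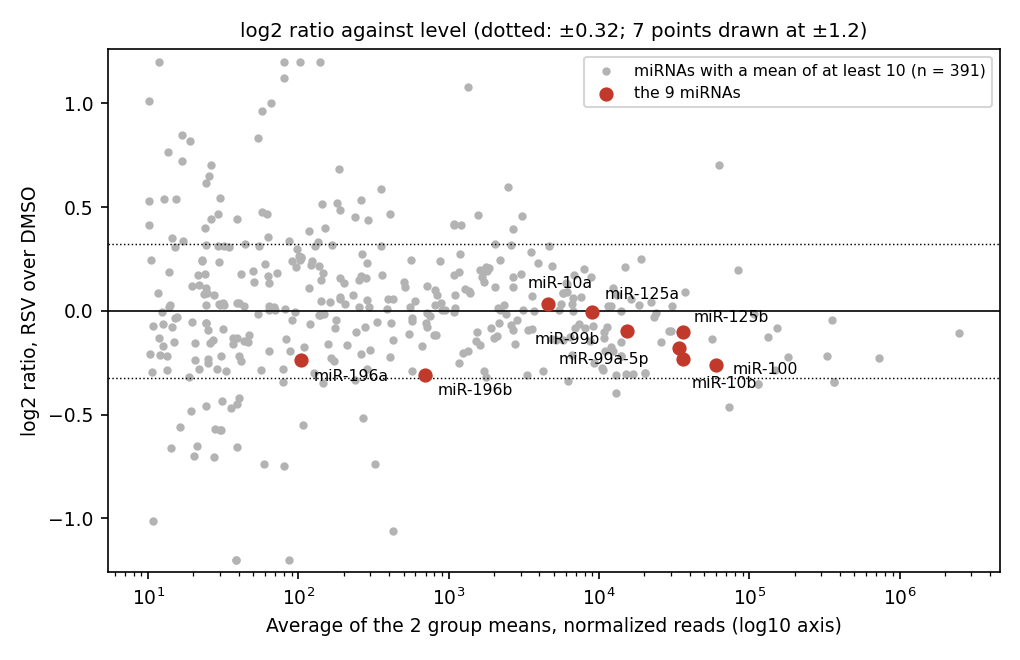
log2 ratio of RSV over DMSO against the average of both group means (log10 axis) for the 391 miRNAs with an average of at least 10 (grey) and the 9 members (red), with dotted lines at −0.32 and 0.32. All 9 members lie inside the dotted lines, and 8 lie below 0.

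In the miR-10 family the members differed from each other. For miR-10a, encoded beside HOXB4, the means were 4631 normalized reads in RSV and 4531 in DMSO, a log2 ratio of 0.031. For miR-10b, encoded beside HOXD4, they were 33297 and 39100, a log2 ratio of −0.23. The ratio of miR-10b to miR-10a was therefore 7.19 in RSV and 8.63 in DMSO, a log2 change of −0.26. Such a ratio between miRNAs of the same libraries does not depend on how a group is scaled. miR-10b is the main product of the family in these cells, and the summed family had 37928 normalized reads in RSV and 43631 in DMSO.

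All 3 members of the miR-99/100 family had lower means in RSV. For miR-100 the log2 ratio was −0.26, from the means given above. For miR-99a-5p the means were 31905 in RSV and 36088 in DMSO, a log2 ratio of −0.18. For miR-99b they were 14721 and 15764, a log2 ratio of −0.099. The sum of these MTOR-repressing miRNAs was 101176 normalized reads in RSV and 117319 in DMSO, the largest of the 4 families. miR-100 was 3.71 times as abundant as miR-99b in RSV and 4.15 times in DMSO, a log2 change of −0.16. The ratio of miR-100 to miR-99a-5p moved less, from 1.81 in DMSO to 1.71 in RSV. The opposite strand of the miR-99a precursor, miR-99a-3p, was rare, with the 5p strand 447 times as abundant in RSV and 415 times in DMSO.

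The miR-125 family had a log2 ratio of summed means of −0.084, the nearest to 0 of the 4 families with size factors. As shares of all miRNA reads it was at 0.061, and the miR-10, miR-99/100 and miR-196 families were at −0.057, −0.068 and −0.15. For miR-125a the means were 9022 in RSV and 9048 in DMSO, a log2 ratio of −0.0041. For miR-125b, the LIN28 and IGF2 repressor, they were 34747 and 37348, a log2 ratio of −0.10. The ratio of miR-125b to miR-125a was 3.85 in RSV and 4.13 in DMSO, a log2 change of −0.10.

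The miRNAs of a let-7 cluster did not all have the same ratio. The let-7 miRNAs encoded beside members, let-7c, let-7a-5p and let-7e, had log2 ratios of −0.19, −0.14 and −0.28. In the first cluster miR-99a-5p was 3.11 times as abundant as let-7c in RSV and 3.08 times in DMSO, a log2 change of 0.016. In the cluster of miR-99b, let-7e and miR-125a, which RefSeq places next to each other, the ratio of miR-125a to let-7e was 0.944 in RSV and 0.778 in DMSO, a log2 change of 0.28. The ratio of miR-99b to let-7e was 1.54 in RSV and 1.36 in DMSO, a log2 change of 0.18. For miR-100 and let-7a-5p the ratio was 1.01 in RSV and 1.11 in DMSO, although let-7a-5p also has genes in other clusters. These means had no recovered library values, so whether the changes exceed the spread between libraries was not tested.

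The miR-196 family, repressors of HOX messenger RNAs, had the lowest ratio of summed means among the 4 families under both scalings, at −0.30 on the log2 scale with size factors, and here values of single libraries could be read. A group mean of few reads can come from only a limited number of combinations of 3 whole read counts divided by the size factors, and for miR-196a a single combination gave each group mean. For miR-196a the RSV libraries held 90.8, 104 and 90.9 normalized reads (140, 134 and 85 reads), and the DMSO libraries held 119, 97.2 and 121 (110, 80 and 88 reads). The groups overlapped, since the DMSO library of size factor 0.823 lay below the highest RSV library. The mean ± SD was 95.1 ± 7.34 (n = 3) in RSV and 112 ± 13.2 (n = 3) in DMSO. The test was limma voom, which fits log2 counts by a linear model and gives precise counts more weight, over the 209 miRNAs with recovered reads and an average of at least 10. The log2 fold change of miR-196a was −0.23 (standard error 0.13, Benjamini-Hochberg adjusted p = 0.28 in limma voom) and did not pass 0.05 before or after adjustment. In this fit 9.57% of the miRNAs were called, and 4.31% were called lower in RSV.

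For miR-196b the DMSO mean had a single combination and the RSV mean had 4. Of these 4, only that of 980, 897 and 505 reads kept each library between 0.5 and 2 times the group mean, and in the others the highest library was at least 5.12 times the lowest. A spread above 5.12 did occur among 66 miRNAs with a unique combination and an average of at least 100, where the largest was 6.93. Still, 65 of these 66 had every library within the limit of 0.5 to 2 times the group mean. These 66 had averages of up to 423, below the 697 of miR-196b. With this limit, added after seeing the data, the RSV libraries held 636, 693 and 540 normalized reads of miR-196b, and the DMSO libraries held 754, 799 and 760. In this combination each RSV library lay below each DMSO library. In the combinations outside the limit, the highest RSV library held 1342, 1006 and 1664 normalized reads, above each DMSO library. The limit selects for a small spread, so the SD, standard error and p-values below hold only if this combination is the true one. The mean ± SD was 623 ± 77.5 (n = 3) in RSV and 771 ± 24.5 (n = 3) in DMSO. Over the 233 miRNAs that then had reads, limma voom gave a log2 fold change of −0.31 (standard error 0.10, Benjamini-Hochberg adjusted p = 0.10), which passed 0.05 before adjustment and not after it, and it called 9.44% of the miRNAs. Without the RSV library of size factor 1.29, which held the most miR-196b of the RSV libraries, the adjusted p-value in limma voom was 0.047, under the threshold. Without any other single library it lay between 0.15 and 0.26. The ratio of miR-196b to miR-196a was 6.55 in RSV and 6.86 in DMSO.

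The rare strands miR-99a-3p and let-7a-3p could also be read per library. Whether let-7a-3p comes from MIRLET7A-2, the let-7a gene beside members, was not tested. miR-99a-3p had 77.8, 57.2 and 79.1 normalized reads under RSV and 73.8, 92.3 and 94.7 under DMSO. The groups overlapped, and limma voom gave a log2 fold change of −0.29 (standard error 0.17, adjusted p = 0.31). let-7a-3p, the opposite strand of let-7a precursors, had 252, 222 and 248 in RSV and 337, 254 and 244 in DMSO, again with overlap (log2 fold change −0.20, standard error 0.14, adjusted p = 0.38 in limma voom). miR-615, encoded beside HOXC5 and HOXC6 and so a further miRNA of a HOX cluster, had means of 7.14 and 8.99 and was below the minimum of 10.

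**Figure D3:**
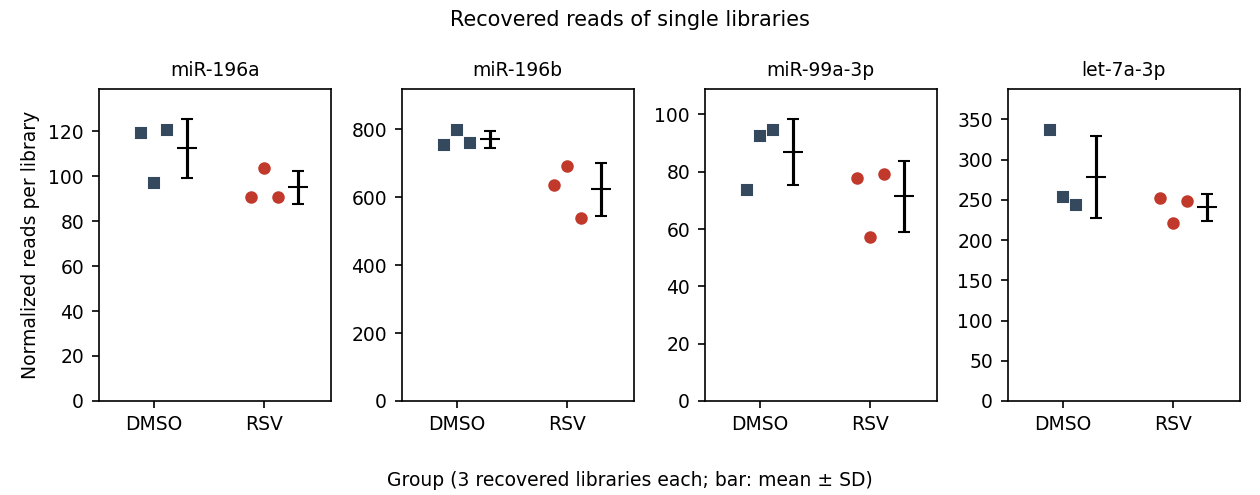
Normalized reads of single recovered libraries (points, linear axes from 0) for miR-196a, miR-196b, miR-99a-3p and let-7a-3p in the DMSO and RSV groups, with mean ± SD of 3 libraries. The groups overlap for each of them except miR-196b, whose RSV libraries (540 to 693) lie below its DMSO libraries (754 to 799) and were read with the limit on their spread.

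Correlations over the 6 libraries were taken with all other miRNAs with an average of at least 50 and recovered reads, including those recovered with the limit. The highest Pearson correlations with miR-196a on the log2 scale were those of miR-505 (0.798), miR-139 (0.794) and miR-132 (0.789). The reads of miR-139, like those of miR-196b, were recovered only with the limit. For miR-196b they were miR-132 (0.813), miR-188 (0.801) and miR-505 (0.760). These values describe 6 points that share 2 groups and their libraries.

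For the other 7 members the means were too high to be taken apart into reads, so their ratios have no error of their own. Among the 66 miRNAs with unique reads and an average of at least 100, up to 423, the median standard error of the log2 difference between 3 RSV and 3 DMSO libraries was 0.12, and the 10th and 90th percentiles were 0.056 and 0.19. The members' log2 ratios from −0.26 to 0.031 can be read beside these values, though the spread of the abundant miRNAs themselves is not known from them. Counting error alone was smaller: for miR-100 the exact 95% binomial interval of the log2 ratio, from reads approximated by the means and size factors, ran from −0.27 to −0.25, and for miR-10a from −0.0029 to 0.066. It covers neither the spread between cultures nor that between library preparations.

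The direction of some members depended on the scaling. Expressed as a share of all normalized miRNA reads of a group, the log2 ratio of each member moved up by about 0.15, as the summed means were lower in RSV, and the median of the 391 miRNAs moved from 0.0049 to 0.14. The members below 0 were then 5 of 9, with a median of −0.033, against 28.1% of the 391. miR-100, miR-10b, miR-99a-5p, miR-196a and miR-196b were below 0 under both scalings, at −0.12, −0.087, −0.033, −0.090 and −0.16 as shares. miR-99b, miR-125a and miR-125b moved to 0.046, 0.14 and 0.041, and miR-10a to 0.18. Under either scaling miR-10a alone lay above the median of the 391 miRNAs, and on the scale of shares miR-125a lay at about that median.

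**Figure D4:**
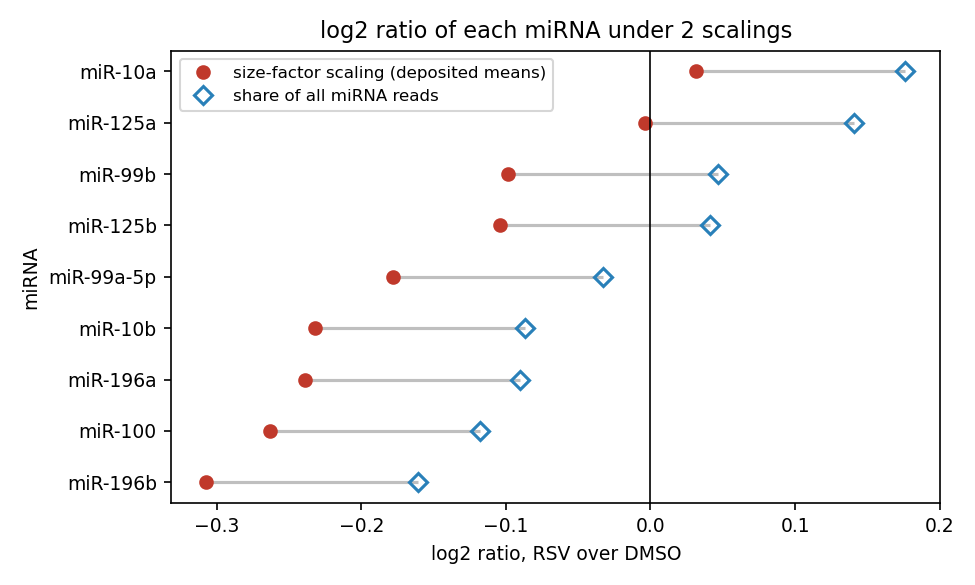
log2 ratio of RSV over DMSO for each member with the size factors of the deposited means (filled circles) and as a share of all miRNA reads (open diamonds). The shift of about 0.15 takes miR-99b, miR-125a and miR-125b across 0 and leaves miR-196b, miR-100, miR-196a, miR-10b and miR-99a-5p below it.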

How the data were processed

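Per the labels and the methods of the paper, miRNA reads were filtered by the authors, mapped to UMD_3.1.1/bosTau8 with Bowtie 0.12.9 and named miRNAs by miRBase, in 3 RSV and 3 DMSO cultures grouped here by title. The authors' deposited values (unit: other) are mean normalized read counts per group, reads divided by size factors. Their fold changes, P-values and adjusted P-values were not used, nor was the mRNA block. The methods call the cultures of a group independent experiments and do not say whether they came from separate fetuses, so p-values measure the spread between these samples.

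Group means were compared as log2 ratios with a pseudocount of 1 and a minimum average of 10, without a test. Size factors were read from the means of single reads, and whole reads were sought for means of up to 1500. A single combination was found for 583 of 634 miRNAs. Both this step and the test were tried on simulated data with a dispersion of 0.02, which sets the spread between libraries. All 442 single combinations and all 20 added by the limit were right. limma voom called 32 of 40 miRNAs simulated with a log2 change of 1 in either direction, and 1 unchanged miRNA. Wider spreads and smaller changes were not simulated. Recovered libraries carry no replicate number. limma 3.58.1 in R 4.3.3 was the test. With 3 libraries per group an exact permutation test cannot go below 0.10. Python 3.11.15, numpy 2.4.6, scipy 1.17.1, pandas 2.3.3, numba 0.67.0 and matplotlib 3.10.9 were used.

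The members, lists and tests were chosen with earlier results of these data known. Named were all members, other strands of their precursors, the let-7 miRNAs beside them, miR-615 and, for members with recovered reads, the 3 miRNAs with the highest correlation. let-7a-3p, the strand opposite let-7a-5p, was added after the values were seen. miRNAs with the same seed, target genes and sequences were not analysed here. Alternatives were another pseudocount, fold, minimum average, scaling, test and tolerance, and each library left out in turn.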

Additional observations from a re-analysis of the deposited data

How the results depend on the processing

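No pseudocount, a pseudocount of 10 and centring on the median left the sign of all 9 log2 ratios as it was. As a share of all miRNA reads, the median of the members was −0.033 in place of −0.18, and miR-99b, miR-125a and miR-125b changed sign, to 0.046, 0.14 and 0.041. With miR-21-5p, which held 36.1% of the RSV and 35.1% of the DMSO reads, left out of the totals (added after seeing the data), the median was −0.011 and the same miRNAs were at 0.068, 0.16 and 0.063. By construction, these scalings shift the ratios of these abundant miRNAs by 0.15 and 0.17. Which scaling is nearer to the amounts in the cells was not tested. At 1.1-fold, 5 members were past the fold, all lower in RSV, against 29.7% of the 391 miRNAs lower by that fold. The members' count past a log2 ratio of 0.32 stayed 0 with no minimum average, with one of 100 and under the other scalings. At 1.5-fold the count was 0 as well. The share of all miRNAs past the fold was not counted at these other settings, so these counts of 0 have no background beside them. Whole reads were recovered for 1 member, also at the wider tolerance, and for 2 with the limit on the spread. For miR-196a the log2 fold change lay between −0.34 and −0.18 and its adjusted p between 0.20 and 0.54 with any single library left out, and its adjusted p was 0.27 with limma-trend, 0.43 with no minimum and 0.23 with library sizes from the recovered reads. For miR-196b, read with the limit, the log2 fold change lay between −0.39 and −0.22 over the libraries left out. Its adjusted p in limma voom lay between 0.047 and 0.26. The number of miRNAs called on recovered reads was 20, and 4 to 23 without a library, with 13 without the RSV library of size factor 1.54 and 5, 7 and 4 without the DMSO libraries of 0.922, 0.823 and 0.729. No paired analysis was possible because the group means and the recovered libraries carry no replicate number.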
